A study of Mus musculus with 9 samples.

Results

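Neutrophil granule and cytoplasm genes were followed through 9 mouse RNA-sequencing libraries, 7 from muscle and 2 from kidney. The group holds 10 genes, S100a8, S100a9, Ngp, Ltf, Camp, Retnlg, Cd177, Mmp8, Mmp9 and Mrgpra2b, of the 24421 gene symbols in the tables. They were picked by symbol because earlier results of these same libraries showed them high in tumour muscle and lower under MDC, so both of those comparisons are given here as descriptions, without a test. The muscle groups were tumour given MDC, tumour given PBS, beta-arrestin knockout given DKK1, beta-arrestin knockout given PBS and wild type given DKK1, with 1 library each, and wild type given PBS, with 2 libraries. The kidney groups were tumour given PBS and wild type given PBS, with 1 library each. PBS is phosphate-buffered saline. DKK1 is a secreted inhibitor of Wnt signalling that acts through LRP5 and LRP6. Beta-arrestins are adaptors that end receptor signalling and help bring receptors inside the cell. The labels do not give the tumour or its site, what MDC stands for, which beta-arrestin gene was deleted and in which cells, the strain, age or sex of the mice, doses or times. They also do not say whether a library is 1 animal or a pool. The series title places the work in cancer cachexia, the wasting of muscle and fat that accompanies a tumour, and in the uptake of LRP6 that Dkk1 drives.

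Neutrophils are short-lived white blood cells that are made in bone marrow, circulate in blood and enter tissue at sites of inflammation. Much of what they carry is made during a few maturation steps in the marrow and stored: azurophil granules come first, then specific and gelatinase granules, while the calcium-binding proteins S100a8 and S100a9 fill the cytoplasm. In mouse, the transcription factors C/EBP epsilon and PU.1 drive granule genes during maturation, and cancers in mice often raise the number of neutrophils in blood and in organs away from the tumour. Not every granule protein is made by neutrophils alone. Mmp9 is also made by macrophages and several other cell types, and Lcn2, another granule gene, is expressed by injured kidney tubules.

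Total counts were 26181062 in tumour MDC muscle, 32607835 in tumour PBS muscle and from 21358854 to 30976557 in the other 5 muscle libraries, and 44421797 in tumour and 42480786 in wild type kidney. A count of 0 in a library allows up to 3 counts, which after TMM scaling (a scaling that sets the bulk of genes level between libraries) is 0.0673 CPM (counts scaled to a fixed library size of 1e+06) in tumour kidney and up to 0.141 CPM in muscle. The labelled tissues fitted their defining genes. The 8 skeletal muscle markers summed to between 77294 and 283023 CPM in muscle and to 244 and 320 CPM in tumour and wild type kidney, and the 8 kidney markers summed to 16980 and 32996 CPM in tumour and wild type kidney and to at most 79.3 CPM in muscle. The names of the deposited tables put the libraries in sets A (kidney), B (tumour MDC, tumour PBS and wild type PBS 1, all muscle) and C (the other 4 muscle libraries), and the labels do not say what the letters stand for. The wild type PBS pair spans sets B and C and stood apart in these genes, with summed levels of 13.5 CPM in library 1 and 3.62 CPM in library 2. The pair also differed in other lists. Skeletal muscle markers summed to 283023 and 106916 CPM in libraries 1 and 2, kidney markers to 79.3 and 7.16 CPM, and monocyte and macrophage markers to 91.7 and 365 CPM. The cause was not tested. Results against wild type PBS muscle are therefore given for each library of the pair.

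The genes lie in a few places of the mouse genome (coordinates on GRCm38, the build named mm10 in the submitters' processing notes). S100a8 (chr3:90668978-90670035, plus strand) and S100a9 (chr3:90692632-90695721, minus strand) are 22.6 kb apart. Camp (chr9:109847379-109849617, minus), Ngp (chr9:110419747-110423012, plus) and Ltf (chr9:111019271-111042767, plus) lie within one stretch of chromosome 9, with 1169.7 kb between Camp and Ltf. Mmp8 (chr9:7558456-7568485, plus) is far from them on the same chromosome. Retnlg (chr16:48872621-48874496, plus), Cd177 (chr7:24743983-24760311, minus), Mrgpra2b (chr7:47463806-47528862, minus) and Mmp9 (chr2:164940780-164955850, plus) stand alone. Mrgpra2b overlaps the pseudogene Gm7255 on the same strand and has the close copy Mrgpra2a, so its counts are uncertain where reads could be placed on either. No other gene of the group overlaps an annotated gene.

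Promoter sequences from RefSeq (GRCm38.p6, from 250 bases before the annotated start to 50 bases after it, 300 in all) were matched for 9 of the 10 genes. They are shown for the S100 pair and for the 3 granule genes of the chromosome 9 stretch, since these lie nearest to one another. Each runs 5′ to 3′ in the direction of transcription, and capitals mark matches to TTNNGNAA, a core of the sites bound by C/EBP factors, on either strand.
S100a8: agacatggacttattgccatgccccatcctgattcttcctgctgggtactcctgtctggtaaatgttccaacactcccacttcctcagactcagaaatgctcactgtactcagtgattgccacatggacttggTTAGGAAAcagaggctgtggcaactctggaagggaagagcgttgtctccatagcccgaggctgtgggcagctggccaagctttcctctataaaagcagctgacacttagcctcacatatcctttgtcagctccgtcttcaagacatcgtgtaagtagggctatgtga
S100a9: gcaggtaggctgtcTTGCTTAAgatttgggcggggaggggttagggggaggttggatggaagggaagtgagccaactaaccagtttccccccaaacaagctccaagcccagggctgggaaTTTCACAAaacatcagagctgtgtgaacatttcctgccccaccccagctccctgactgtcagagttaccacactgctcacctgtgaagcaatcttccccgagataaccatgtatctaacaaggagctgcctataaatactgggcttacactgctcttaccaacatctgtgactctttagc
Ngp: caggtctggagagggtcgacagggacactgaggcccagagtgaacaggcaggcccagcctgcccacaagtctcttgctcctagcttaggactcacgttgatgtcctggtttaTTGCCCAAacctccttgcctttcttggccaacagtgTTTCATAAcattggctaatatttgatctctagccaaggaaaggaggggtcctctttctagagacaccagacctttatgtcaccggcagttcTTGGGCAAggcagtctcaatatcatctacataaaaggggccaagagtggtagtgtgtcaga
Ltf: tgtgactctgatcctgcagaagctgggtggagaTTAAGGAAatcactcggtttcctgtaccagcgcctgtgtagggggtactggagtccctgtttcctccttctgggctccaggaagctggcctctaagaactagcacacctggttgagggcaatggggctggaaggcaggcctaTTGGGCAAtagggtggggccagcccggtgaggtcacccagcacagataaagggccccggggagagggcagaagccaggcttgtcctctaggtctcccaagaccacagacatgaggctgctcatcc
Camp: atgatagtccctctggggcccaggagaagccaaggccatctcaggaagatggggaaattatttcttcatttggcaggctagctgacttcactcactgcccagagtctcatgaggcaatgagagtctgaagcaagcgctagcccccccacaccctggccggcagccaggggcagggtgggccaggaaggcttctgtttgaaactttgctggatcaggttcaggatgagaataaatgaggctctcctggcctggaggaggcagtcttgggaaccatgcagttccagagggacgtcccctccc
These windows are chr3:90668821-90669120 (plus) for S100a8, chr3:90695672-90695971 (minus) for S100a9, chr9:110419558-110419857 (plus) for Ngp, chr9:111019042-111019341 (plus) for Ltf and chr9:109849407-109849706 (minus) for Camp. Counting the first transcribed base as 1 and the base before it as -1, the S100a8 match begins at -117, the S100a9 matches at -236 and -130, the Ngp matches at -138, -102 and -11, and the Ltf matches at -217 and -75. In all, 8 of the 9 promoters held the letters, Camp being the exception, against 40.7% of 32851 mouse promoters of the same length. The PU.1 letters GAGGAAG, on either strand, were in 2 of the 9 (S100a8 and Mmp8), against 13.6% of promoters, and the TATA letters TATAAA, on either strand, were in 4 of the 9 (S100a8, S100a9, Cd177 and Mmp8), against 13.6%. A match says only that the letters are present.

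The tumour PBS muscle library had the highest level of all 10 genes among the 7 muscle libraries. The group summed to 11357 counts, or 334 CPM, in that library, against 289 counts (13.5 CPM) in wild type PBS 1 and 83 counts (3.62 CPM) in wild type PBS 2. The summed level was 24.7 times that of wild type PBS 1 (95% counting interval 21.9 to 27.8) and 92.2 times that of wild type PBS 2 (74.3 to 116). Intervals here and elsewhere are exact conditional binomial ones and cover counting error only, not differences between animals. Because this is bulk tissue, more cells of a type and more RNA per cell cannot be told apart.

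S100a8 and S100a9 form calprotectin, a calcium- and zinc-binding complex that makes up a large part of neutrophil cytoplasm and can signal through Toll-like receptor 4. S100a9 had 453 counts in tumour MDC, 5561 in tumour PBS, 15 in knockout DKK1, 0 in knockout PBS, 14 in wild type DKK1, and 157 and 5 in wild type PBS 1 and 2. The 2 tumour libraries were the highest, and the wild type pair differed more from each other than wild type PBS 2 did from the DKK1 library. S100a8 had 196 counts in tumour MDC, 2584 in tumour PBS, 3 in knockout DKK1, 1 in knockout PBS, 7 in wild type DKK1, and 68 and 6 in wild type PBS 1 and 2. Its order followed that of S100a9 at the top: tumour PBS, then tumour MDC, then wild type PBS 1, with the remaining 4 libraries at 7 counts or fewer. In CPM, S100a9 was at 164 in tumour PBS against 7.36 and 0.218 in wild type PBS 1 and 2, and S100a8 was at 76.0 against 3.19 and 0.262. The ratio for S100a9 was 22.2 (19.0 to 26.2) against wild type PBS 1 and 750 (321 to 2309) against wild type PBS 2, and for S100a8 it was 23.8 (18.7 to 30.8) and 290 (133 to 792). The size of the increase therefore depended on the wild type library, while its direction did not.

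Ngp, a cathelicidin-related protein of neutrophil granules, had 81 counts in tumour MDC, 1016 in tumour PBS, 0 in both knockout libraries, 2 in wild type DKK1, and 36 and 0 in wild type PBS 1 and 2. Ltf encodes lactotransferrin, the iron-binding protein that defines specific granules. It had 23 counts in tumour MDC, 438 in tumour PBS, 4 in knockout DKK1, 0 in knockout PBS, 1 in wild type DKK1, and 8 and 0 in wild type PBS 1 and 2. Camp encodes the antimicrobial peptide precursor cathelicidin. It had 27 counts in tumour MDC, 253 in tumour PBS, 0 in both knockout libraries, 2 in wild type DKK1, and 6 and 0 in wild type PBS 1 and 2. All 3 granule genes were thus lowest or absent in set C and highest in tumour PBS, and the tumour level stood clear of both wild type libraries. Tumour PBS over wild type PBS 1 was 17.7 (12.7 to 25.4) for Ngp, 34.4 (17.3 to 80.1) for Ltf and 26.5 (11.99 to 72.8) for Camp. Against wild type PBS 2, where each had 0 counts, tumour PBS was at least 228-fold higher for Ngp, at least 98.4-fold higher for Ltf and at least 56.8-fold higher for Camp. Such bounds set the 0 to 3 counts in that library and, here and elsewhere, leave out the counting error of the higher count.

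Retnlg, a resistin-like secreted protein of mouse myeloid cells, had 39 counts in tumour MDC, 663 in tumour PBS, 0 in both knockout libraries, 1 in wild type DKK1, and 8 and 0 in wild type PBS 1 and 2. It showed a ratio of 52.0 (26.2 to 121) against wild type PBS 1. This interval overlapped that of S100a8 and began near the end of that of S100a9, so no order among these genes is read. Cd177, a neutrophil surface glycoprotein also stored in specific granules that in human binds PECAM1, had 9 counts in tumour MDC, 157 in tumour PBS, 0 in knockout DKK1, 4 in knockout PBS, 0 in wild type DKK1, and 0 and 6 in wild type PBS 1 and 2. Cd177 was the reverse of the granule genes within the wild type pair, with its few counts in library 2. Tumour PBS was at least 32.8-fold higher than wild type PBS 1 and 17.6 times wild type PBS 2 (7.92 to 48.8). Mrgpra2b, a gene for a Mas-related G protein-coupled receptor of mouse neutrophils, had 3 counts in tumour MDC, 104 in tumour PBS and 0 in the other 5 muscle libraries. The close copy Mrgpra2a had 3 counts in tumour MDC, 79 in tumour PBS and 0 in those same 5 libraries.

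The 2 collagen-degrading enzymes followed a different pattern outside the tumour libraries. Mmp8, the neutrophil collagenase of specific granules, had 24 counts in tumour MDC, 295 in tumour PBS, 1 in knockout DKK1, 12 in knockout PBS, 2 in wild type DKK1, and 0 and 12 in wild type PBS 1 and 2. Mmp9, the gelatinase that names the gelatinase granule, had 54 counts in tumour MDC, 286 in tumour PBS, 41 in knockout DKK1, 7 in knockout PBS, 82 in wild type DKK1, and 6 and 54 in wild type PBS 1 and 2. In Mmp9 the tumour MDC level (2.41 CPM) was no higher than wild type PBS 2 (2.36 CPM) beyond counting error, as was the case for Mmp8 and Cd177. Its tumour PBS level was 29.9 times wild type PBS 1 (13.6 to 82.2) and 3.57 times wild type PBS 2 (2.66 to 4.87). For Mmp8 tumour PBS was at least 61.7-fold higher than wild type PBS 1 and 16.6 times wild type PBS 2 (9.34 to 32.4).

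**Figure D1:**
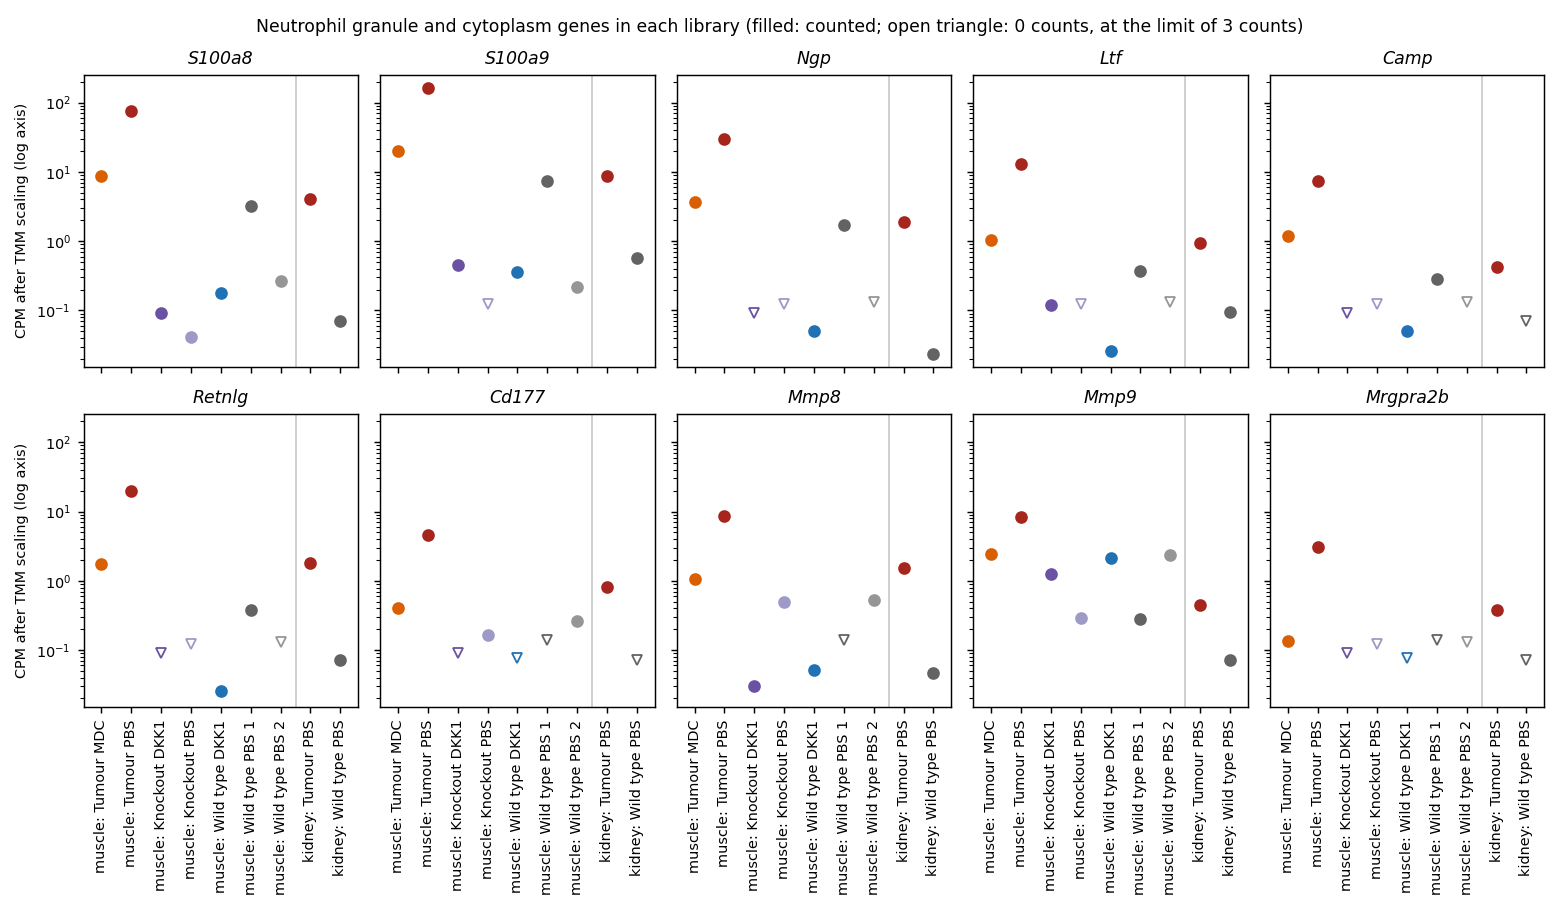
Level of each of the 10 genes in every library, as CPM after TMM scaling on a log axis, with muscle left and kidney right of the grey line and the 2 tissues scaled separately. Filled points are libraries with counts, and open triangles mark 0 counts drawn at the limit of 3 counts. The tumour PBS muscle point is the highest in all 10 panels, and S100a8 and Mmp9 are the 2 panels with counts in every library.

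A size rule was used in place of a test: a change of 2-fold or more with 100 or more counts in the higher library, against each wild type PBS library where these were the comparison. All 10 genes passed it in tumour PBS muscle, where 1.37% of the genes with enough counts did (150 of 10981). The genes were picked on this contrast, so nothing is read from the difference. Their median log2 change, against the mean of the wild type pair and with a prior count of 2, was 5.88, and the median of all genes was 0.03. Against wild type PBS 1 alone, in the same set, the median was 4.72, or 4.81 with genes at 0 set to their bound. Against wild type PBS 2 it was 7.12, or 6.22 with genes at their bound.

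**Figure D2:**
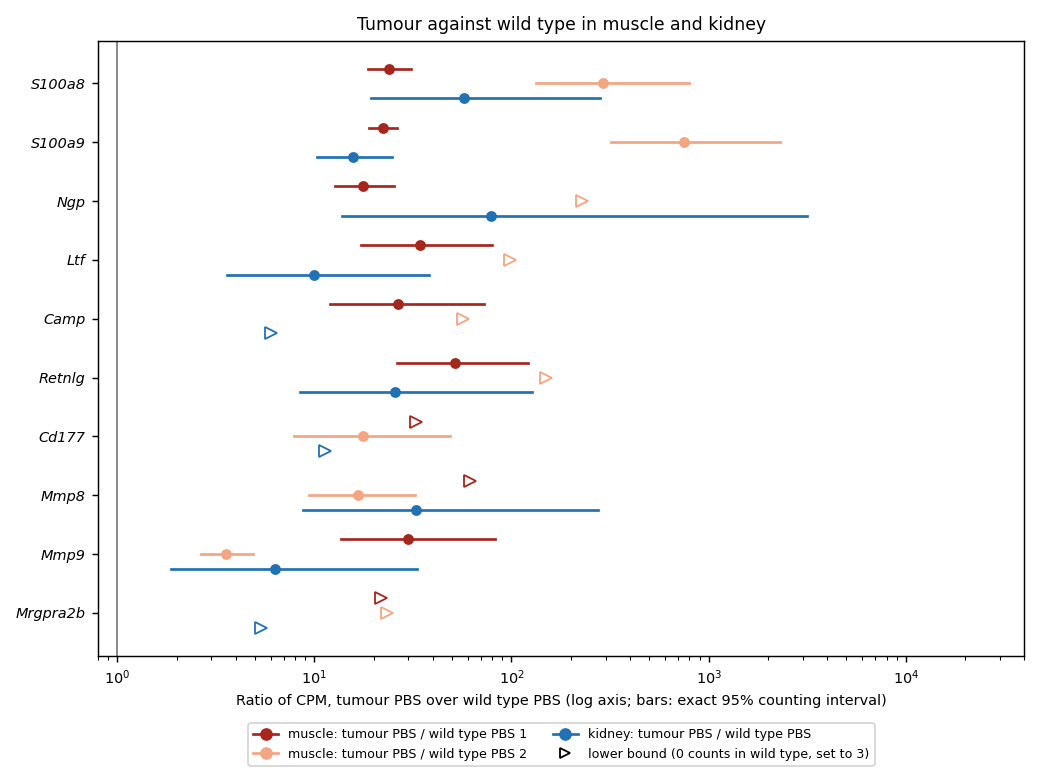
Ratio of CPM in tumour PBS over wild type PBS for each gene, on a log axis, in muscle against wild type PBS 1 and 2 and in kidney. Bars are exact 95% counting intervals and open triangles are lower bounds where wild type had 0 counts; every point lies to the right of 1, from 3.57 for Mmp9 to 750 for S100a9 in muscle and from 5.38 (a bound, Mrgpra2b) to 78.8 (Ngp) in kidney.

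Genes of other neutrophil granules were read beside the 10. Of the 5 azurophil granule and progenitor genes, which neutrophils make earliest, 0 reached 100 counts in tumour PBS muscle (median log2 change 3.08). Mpo, the myeloperoxidase gene, had 56 counts in tumour PBS and 0 in both wild type PBS libraries, and the elastase gene Elane was at 0.647 CPM in tumour PBS and at 0 in both. Of 13 other specific and gelatinase granule genes, 2 passed the size rule upward and 0 downward (median 0.79), namely Lcn2, an iron-siderophore-binding protein, and Pglyrp1, a peptidoglycan recognition protein. The list summed to 288 CPM in tumour PBS against 61.8 and 648 CPM in wild type PBS 1 and 2, so its tumour level lay within the wild type pair. Lcn2 was at 20.6 CPM in tumour PBS against 0.328 and 3.27 CPM in wild type PBS 1 and 2, and Pglyrp1 was at 5.68 CPM against 0 and 0.131 CPM. Olfm4, which marks a part of mouse neutrophils, was at 0.559 CPM against 0.0937 and 0 CPM. The 6 stefin A genes had 224 counts in all in tumour PBS against 4 and 0 in wild type PBS 1 and 2, with none above 100 counts.

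Among 16 measured surface receptor and maturity genes of neutrophils, 4 passed the size rule upward and 0 downward (median 3.93). Among them were the chemokine receptor Cxcr2, the G-CSF receptor Csf3r and the formyl peptide receptor Fpr2. Cxcr2 had 396 counts in tumour PBS against 2 and 0 in wild type PBS 1 and 2. Csf3r had 485 counts against 19 and 97, a smaller distance from wild type PBS 2. Ly6g, the surface gene commonly used to sort mouse neutrophils, is not among the gene symbols used here. Of 10 genes for neutrophil attractants and growth factors, only Il1b passed (3.91 CPM in tumour PBS against 0.469 and 0.175 CPM), and the attractants Cxcl1 and Cxcl2 had 68 and 0 counts in tumour PBS. Of 6 granulocyte transcription factor genes, Cebpd (log2 change 1.90) and Spi1, which encodes PU.1 (1.41), passed upward, whereas Cebpe had 18 counts in tumour PBS against 8 and 0.

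Markers of other blood cells were read beside these genes. Of 12 monocyte and macrophage markers 1 passed the size rule upward, Ly6c2 (median 0.73), and all 12 had counts in each muscle library. They summed to 238 CPM in tumour PBS against 91.7 and 365 CPM in wild type PBS 1 and 2, so the tumour level lay within the wild type pair. Of 5 measured erythroid markers, 2 passed upward, Alas2 and the alpha-globin gene Hba-a1 (median 2.00), and the list summed to 1295 CPM in tumour PBS against 331 and 325 CPM. Platelet markers summed to 17.3 CPM in tumour PBS against 5.62 and 15.9 CPM, with 1 of 6 past the rule (Itga2b). T and NK cell markers summed to 1.41 CPM in tumour PBS against 0.937 and 3.23 CPM, and B cell markers to 1.85 CPM against 1.31 and 1.48 CPM. The part of blood left in the tissue in these levels was not tested.

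MDC was given to 1 tumour muscle library, in the same set as tumour PBS and wild type PBS 1. All 10 genes were lower in the MDC library than in tumour PBS and passed the size rule downward, where 3.37% of genes with enough counts did (371 of 11005). As this contrast also served to pick the genes, the count is a description. The group summed to 40.6 CPM in tumour MDC against 334 CPM in tumour PBS, 8.22 times lower (7.69 to 8.81), and the median log2 change was -3.06 against 0.00 for all genes. There is no second library of either group, so the spread between animals is unknown for this comparison.

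The decrease was of similar size in the cytoplasmic S100 pair and in the granule genes Ngp and Mmp8. S100a9 was at 20.2 CPM in tumour MDC against 164 CPM in tumour PBS, 8.08 times lower (7.34 to 8.91). S100a8 (8.76 against 76.0 CPM) was 8.68 times lower (7.50 to 10.1), Ngp (3.62 against 29.9 CPM) 8.26 times lower (6.58 to 10.5) and Mmp8 (1.07 against 8.67 CPM) 8.09 times lower (5.33 to 12.8). Counting intervals of these 4 genes overlapped. Ltf (1.03 against 12.9 CPM) was 12.5 times lower (8.25 to 19.98), Retnlg (1.74 against 19.5 CPM) 11.2 times lower (8.10 to 15.9) and Cd177 (0.402 against 4.62 CPM) 11.5 times lower (5.90 to 25.6). Camp (1.21 against 7.44 CPM) was 6.17 times lower (4.14 to 9.54). The ends of the range were Mrgpra2b, at 3 counts against 104 (22.8 times lower, 7.59 to 112), and Mmp9, at 54 counts against 286 (3.49 times lower, 2.60 to 4.75). The interval of Mmp9 lay below those of S100a8, S100a9, Ngp, Ltf, Retnlg, Cd177, Mmp8 and Mrgpra2b, and it overlapped that of Camp.

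**Figure D3:**
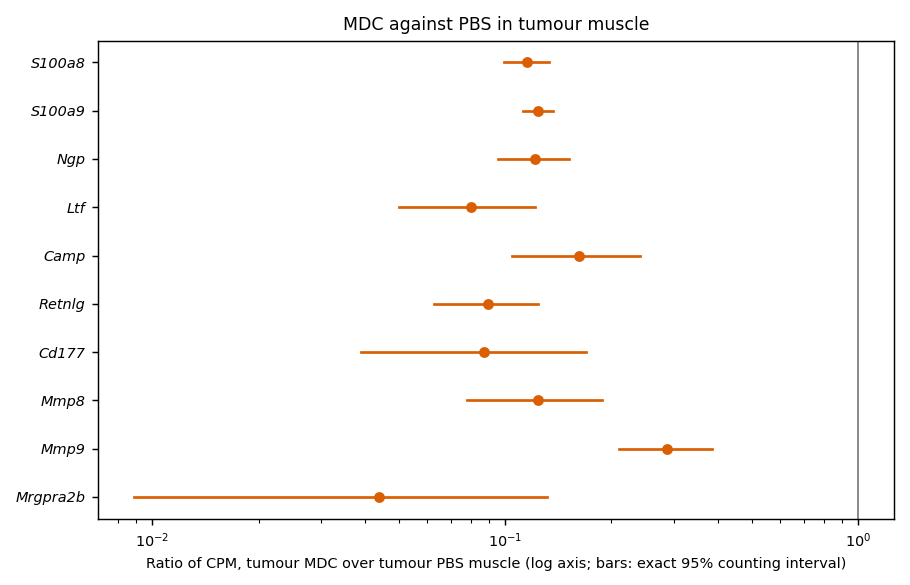
Ratio of CPM in tumour MDC over tumour PBS muscle for each gene, on a log axis, with exact 95% counting intervals as bars and 1 library in each group. All 10 ratios lie left of 1, between 0.0438 for Mrgpra2b and 0.287 for Mmp9.

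The MDC library was above wild type PBS in part of the group. Ratios of tumour MDC over wild type PBS 1 ran from 2.14 (Ngp, 1.43 to 3.27) to 8.58 (Mmp9, 3.70 to 24.4), and those over wild type PBS 2 from 1.02 (Mmp9, 0.689 to 1.52) to 92.8 (S100a9, 39.5 to 287). S100a8 and S100a9 were the 2 genes past the size rule against both, with a background of 0.776% (78 of 10048). Both were 2.75 times wild type PBS 1 (2.08 to 3.68 for S100a8, 2.29 to 3.32 for S100a9). The median log2 change of the 10 genes was 1.69 against wild type PBS 1, or 1.49 with genes at 0 set to their bound, and 4.06 against wild type PBS 2, or 3.09 with genes at their bound. This comparison shares its libraries with the 2 before it and is no separate evidence.

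Genes of the other neutrophil lists were lower in tumour MDC as well. Of 13 other specific and gelatinase granule genes 6 passed downward and 0 upward (median -1.45), with Lcn2 at 3.26 CPM in tumour MDC against 20.6 CPM in tumour PBS and Pglyrp1 at 1.16 against 5.68 CPM. The rest of the 6 were Hp, Lyz2, Itgam and Cybb (log2 change -1.79, -1.17, -1.65 and -1.45). None of these had passed upward in tumour PBS against wild type PBS muscle. All 4 receptor genes that were high in tumour PBS passed downward (median of the 16 genes -2.51), with Cxcr2 at 1.79 CPM against 11.6 CPM and Fpr2 at 0.447 against 5.03 CPM. The azurophil gene Mpo had 8 counts against 56. Spi1 and Cebpa were the transcription factor genes past the rule, both lower, with Spi1 at 4.51 CPM against 11.5 CPM and Cebpa at 10.9 against 22.2 CPM. Monocyte and macrophage markers were lower for 4 of 12 (Adgre1, Ccr2 and Cx3cr1 among them, median -0.75) and summed to 137 CPM in tumour MDC against 238 CPM in tumour PBS. B cell markers summed to 0.268 CPM (6 counts) in tumour MDC against 1.85 CPM (63 counts) in tumour PBS, with a median log2 change of -2.08 and 0 of 6 with the 100 counts the size rule needs. T and NK cell markers summed to 1.34 CPM in tumour MDC against 1.41 CPM in tumour PBS. Erythroid markers went the other way, with a sum of 2568 CPM in tumour MDC against 1295 CPM in tumour PBS and a median of 0.53, none past the rule. Platelet markers summed to 12.4 against 17.3 CPM. The part of these cells in the levels of the 10 genes was not tested.

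**Figure D4:**
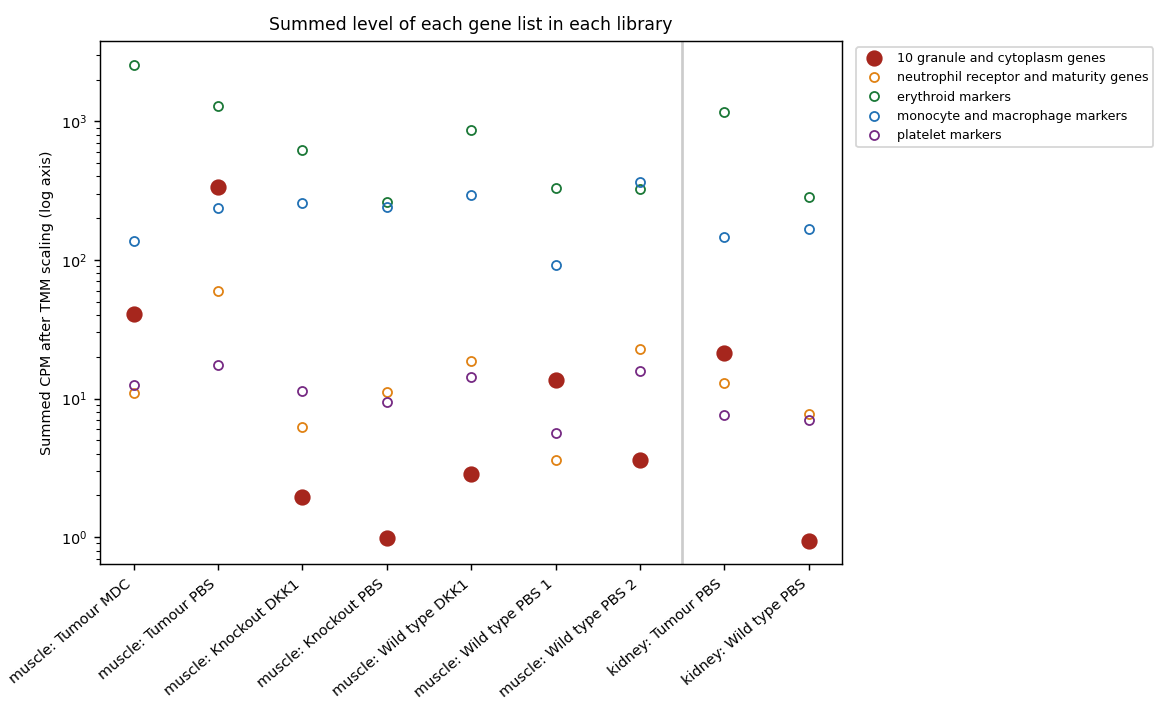
Summed CPM after TMM scaling, on a log axis, of the 10 genes, of neutrophil receptor and maturity genes and of erythroid, monocyte and macrophage, and platelet markers in each library, with muscle left and kidney right of the grey line. Over the muscle libraries the sum of the 10 genes runs from 0.990 CPM in knockout PBS to 334 CPM in tumour PBS, while monocyte and macrophage markers run from 91.7 CPM in wild type PBS 1 to 365 CPM in wild type PBS 2.

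The shares that single genes took of the group's counts were set side by side. S100a9 took 49.8% of the group's counts in tumour MDC (exact Clopper-Pearson 95% interval 46.5 to 53.1), 49.0% in tumour PBS (48.0 to 49.9) and 54.3% in wild type PBS 1 (48.4 to 60.2). S100a8 took 21.6%, 22.8% and 23.5% in those 3 libraries, with overlapping intervals, and Ngp took 8.91%, 8.95% and 12.5%. Other genes had intervals that did not overlap. Mmp9 took 5.94% in tumour MDC (4.49 to 7.68) and 2.52% in tumour PBS (2.24 to 2.82). Mmp8 took 2.64% in tumour MDC (1.70 to 3.90), 2.60% in tumour PBS (2.31 to 2.91) and 0% in wild type PBS 1 (0 to 1.27). Retnlg took 5.84% in tumour PBS (5.41 to 6.28) and 2.77% in wild type PBS 1 (1.20 to 5.38). In the set C libraries Mmp9 took most of the few counts instead, with 64.1% in knockout DKK1 (51.1 to 75.7), 73.9% in wild type DKK1 (64.7 to 81.8) and 65.1% in wild type PBS 2 (53.8 to 75.2). In knockout PBS the largest share was that of Mmp8, at 12 of 24 counts.

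Levels per length can be compared between genes in the deposited RPKM, which scales reads to gene length and library size. In tumour PBS muscle S100a9 was at 325 RPKM and S100a8 at 202 RPKM, followed by Retnlg (33.4), Ngp (26.8) and Camp (12.95), and then by Ltf (4.90), Mmp8 (3.69), Mmp9 (2.76), Mrgpra2b (2.53) and Cd177 (1.77 RPKM). In tumour MDC the first 2 were the same, at 33.0 RPKM for S100a9 and 19.1 RPKM for S100a8, with Ngp (2.66) and Retnlg (2.45) next and not distinguishable by their counts of 81 and 39. S100a8 stood at 0.578 of S100a9 per length in tumour MDC, 0.621 in tumour PBS and 0.579 in wild type PBS 1, and at 0.613 in tumour kidney.

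**Figure D5:**
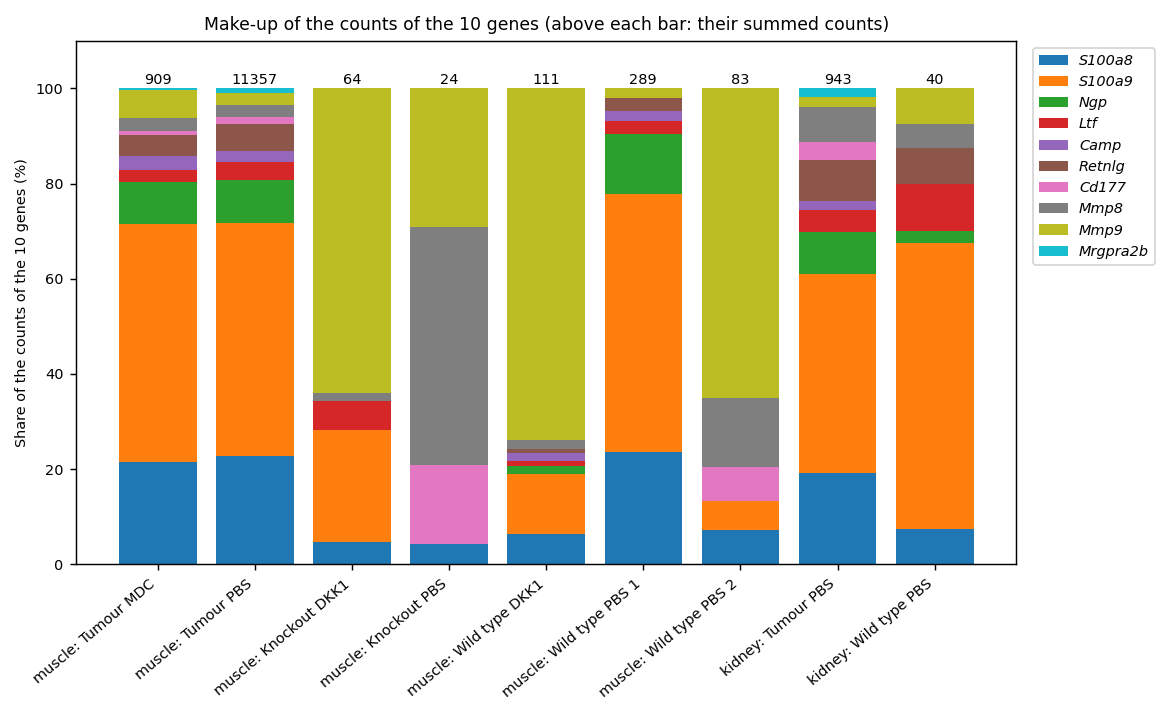
Share of each gene in the summed counts of the 10 genes, in percent, for every library, with the summed counts above each bar. The muscle bars of tumour MDC, tumour PBS and wild type PBS 1 and both kidney bars are mostly S100a9 and S100a8. Mmp9 takes 64.1% to 73.9% in knockout DKK1, wild type DKK1 and wild type PBS 2.

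In kidney the tumour label was compared with wild type in 1 library each, both given PBS, and this tissue was not used to pick the genes. All 10 genes had more counts in tumour kidney, with a sum of 943 counts (21.1 CPM) against 40 counts (0.945 CPM) in wild type kidney, 22.4 times higher (16.3 to 31.5). S100a9 had 395 counts in tumour kidney against 24 in wild type kidney, a ratio of 15.6 (10.3 to 24.7). S100a8 had 181 counts against 3, a ratio of 57.3 (19.3 to 280). These were the 2 genes with 100 or more counts, and both passed the size rule, as did 5.75% of all genes with enough counts (742 of 12897). With a minimum of 20 counts in place of 100, 8 of the 10 passed, as did 7.64% of all genes with enough counts (1166 of 15271). No test was possible with 1 library in each group, so the result has no replicate check.

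The granule genes were higher in tumour kidney at lower counts. Ngp had 83 counts in tumour kidney against 1 in wild type kidney (ratio 78.8, 13.8 to 3149), Ltf 42 against 4 (9.97, 3.62 to 38.3) and Camp 19 against 0 (at least 6.01-fold higher). Retnlg had 81 counts against 3 (25.6, 8.46 to 127) and Mmp8 69 against 2 (32.7, 8.73 to 276). Every interval lay above 1 but most spanned more than a factor of 10, so no order among these genes can be read at this depth. Cd177 had 36 counts against 0 (at least 11.4-fold higher), Mrgpra2b 17 against 0 (at least 5.38-fold higher) and Mmp9 20 against 3 (6.33, 1.88 to 33.3). The median log2 change was 3.93, or 3.74 with genes at 0 set to their bound, against 0.00 for all genes.

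The S100 genes led the mix in tumour kidney as in tumour PBS muscle, and some of the smaller genes took other shares. In wild type kidney, at 40 counts in all, S100a9 took 60.0% (43.3 to 75.1) and S100a8 7.50% (1.57 to 20.4), so a large S100a9 share was not particular to tumour kidney. S100a9 took 41.9% of the group's counts in tumour kidney (38.7 to 45.1) and S100a8 19.2% (16.7 to 21.9), with Ngp at 8.80% (7.07 to 10.8), so that the S100a9 and S100a8 intervals lay below those in tumour PBS muscle (48.0 to 49.9 and 22.0 to 23.5) and that of Ngp overlapped (8.43 to 9.49). Cd177 took 3.82% in tumour kidney (2.69 to 5.25) and 1.38% in tumour PBS muscle (1.18 to 1.61), and Mmp8 took 7.32% (5.74 to 9.17) and 2.60% (2.31 to 2.91). These intervals of Cd177 and Mmp8 did not overlap between the 2 tissues, within counting error and with 1 library for each. Per length, S100a9 was at 17.0 RPKM and S100a8 at 10.4 RPKM in tumour kidney, against 1.08 and 0.180 RPKM in wild type kidney.

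Some genes of other neutrophil lists were higher in tumour kidney, where 5.75% of all genes with enough counts passed the size rule upward. Of 13 other specific and gelatinase granule genes 3 passed upward and 0 downward (median 0.14): Lcn2, with 3445 counts in tumour kidney against 116 in wild type kidney, Hp, which encodes haptoglobin, with 5894 against 187, and the integrin gene Itgam, with 274 against 69. Lcn2 is also a known product of injured kidney tubules and Hp one of liver and fat, so neither gene is specific to neutrophils. Of 16 receptor genes 1 passed, Hcar2 (median 0.94), which is near the share of all genes and is no result about the list. In tumour PBS muscle the log2 change of Hcar2 was 0.03. Cxcr2 had 36 counts in tumour kidney against 11 and Csf3r 64 against 45. The attractant Cxcl1 had 270 counts in tumour kidney against 62, and Cebpd was higher (log2 change 1.95). The azurophil genes had 48 counts in all against 3. Monocyte and macrophage markers passed for 0 of 12, with a sum of 145 CPM in tumour kidney against 168 CPM in wild type kidney. Erythroid markers summed to 1160 CPM against 284 CPM, with Alas2 and Hba-a1 past the rule, and platelet markers to 7.58 against 6.97 CPM. The part of blood in the kidney levels was not tested.

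DKK1 was compared with PBS in wild type muscle, where the 10 genes were low. They summed to 2.84 CPM in wild type DKK1, with 2 genes at 0, against 13.5 and 3.62 CPM in wild type PBS 1 and 2, with 3 and 5 genes at 0. None had enough counts for the size rule against both wild type libraries, at backgrounds of 2.41% higher and 0.271% lower. The edgeR quasi-likelihood test with Benjamini-Hochberg adjustment called 0 of 15482 genes (0%), and DESeq2 called 4 genes, none from this group. Before adjustment 206 genes were under 0.05 in edgeR, 3 of them from the group: S100a8 (log2 change -3.23), S100a9 (-3.38) and Ngp (-3.92), with adjusted p = 1.00 each. These lower values rested on wild type PBS 1. S100a9 in wild type DKK1 was 0.0487 of wild type PBS 1 (0.0260 to 0.0842) and 1.64 times wild type PBS 2 (0.559 to 5.82), the library of the same set.

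Knockout PBS muscle was compared with the same wild type pair. It had the lowest sum of the group, 0.990 CPM over 24 counts with 6 genes at 0, against 13.5 and 3.62 CPM in wild type PBS 1 and 2. Backgrounds of the size rule were 0.815% higher and 0.667% lower, with no gene of the group having enough counts. edgeR's quasi-likelihood test called 0 genes (0%), with 182 under 0.05 before adjustment. The 3 from the group were S100a9, S100a8 (log2 change -5.24) and Ngp, with adjusted p = 1.00 each. DESeq2 called 19 genes, none from this group. S100a9 had 0 counts in knockout PBS against 157 and 5 in wild type PBS 1 and 2. With the 0 set to 3 counts, knockout PBS was 59.4-fold lower than library 1 and 1.76-fold lower than library 2. The counting error of the 5 counts is left out of this, so a difference from library 2 is not shown. Mmp8 had 12 counts in knockout PBS against 0 and 12, and Mmp9 had 7 against 6 and 54. The summed level in knockout PBS was 3.66 times lower than in wild type PBS 2 of the same set (2.30 to 6.03). As Mmp9 took 65.1% of the counts in wild type PBS 2 and 29.2% in knockout PBS, this is no measure of the whole group.

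Within the knockout, DKK1 was set against PBS with 1 library each. The sum was 1.94 CPM in knockout DKK1 against 0.990 CPM in knockout PBS, 1.96 times higher (1.21 to 3.28). Mmp9 took 64.1% of the group's counts in knockout DKK1 and 29.2% in knockout PBS, so this ratio does not speak for the group as a whole. Mmp9 had 41 counts in knockout DKK1 against 7 in knockout PBS, a ratio of 4.31 (1.91 to 11.4), and S100a9 had 15 against 0, at least 3.68-fold higher. Mmp8 had 1 count against 12, a ratio of 0.0613 (0.00143 to 0.414). The gelatinase and the collagenase thus differed in opposite directions between these libraries. Backgrounds of the size rule were 2.28% higher and 0.72% lower, with no gene of the group at 100 counts. edgeR's quasi-likelihood test called 0 genes (0%), with 48 under 0.05 before adjustment, of which 1 was from the group (S100a9, adjusted p = 1.00), and DESeq2 called 0.

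Under DKK1, knockout and wild type muscle both had few counts of these genes. S100a9 had 15 counts in knockout DKK1 against 14 in wild type DKK1, a ratio of 1.27 (0.572 to 2.84), and S100a8 had 3 against 7, a ratio of 0.508 (0.0848 to 2.23). Mmp9 had 41 against 82, a ratio of 0.593 (0.397 to 0.873). Backgrounds of the size rule were 2.7% higher and 10.1% lower, and no gene of the group had enough counts. edgeR's quasi-likelihood test called 0 genes (0%), with 217 under 0.05 before adjustment and none of them from the group (adjusted p = 1.00), and DESeq2 called 6 genes, none from the group. The difference between the DKK1 effects in knockout and in wild type was tested as an interaction in edgeR. It called 0 genes (0%), with 44 under 0.05 before adjustment, of which 1 was from the group (S100a9, adjusted p = 1.00), again with wild type PBS 1 setting the wild type level. These tests share the wild type pair, which spans sets B and C, for their only degree of freedom among libraries. The spread they use therefore includes any difference between the sets, also where both libraries compared are in set C. With that spread and the counts of set C, a difference of several-fold in most of the 10 genes was not detectable.

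Mmp9 therefore varied apart from most of the others outside the tumour libraries, as did Mmp8 and Cd177 at few counts. Across the 7 muscle libraries, the Pearson correlation of each gene's log2 CPM with the mean of the other 9 was between 0.93 and 0.99 for 7 genes, 0.82 for Cd177, 0.75 for Mmp8 and 0.62 for Mmp9. These values describe 7 libraries from 2 sets and of different depths, in which tumour PBS stands far from the rest. They include the tumour libraries, so they do not measure variation outside them. The metalloproteinase inhibitor Timp1 was at 0.938 CPM in tumour MDC, 1.12 in tumour PBS, 0.394 in knockout DKK1, 2.35 in knockout PBS, 1.56 in wild type DKK1 and 0.656 and 5.45 CPM in wild type PBS 1 and 2.

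Of 12782 other genes with enough counts, those with the pattern most like the mean of the 10 genes over the 7 muscle libraries were Yipf3 (correlation 0.984), Ppbp (0.981), Cxcr2 (0.979), Csf2rb2 (0.976), Il1b (0.976), Amy2a2, Amy2a3 and Amy2a4 (0.972 each), Amy2a5 (0.969) and Gpn2 (0.965). Cxcr2 encodes a chemokine receptor of neutrophils, Il1b an inflammatory cytokine of monocytes, macrophages and neutrophils, Csf2rb2 a receptor subunit for interleukin 3, and Ppbp a platelet chemokine. Ppbp had 14 counts in tumour MDC, 92 in tumour PBS, 3 in knockout DKK1, 4 in knockout PBS, 8 in wild type DKK1, and 7 and 3 in wild type PBS 1 and 2. The Amy2a genes encode pancreatic amylases. Amy2a5 had 40 counts in tumour MDC, 497 in tumour PBS and 0 in the other 5 muscle libraries, and Amy2a2, Amy2a3 and Amy2a4 had the same counts as each other in every library (22 in tumour MDC and 349 in tumour PBS), so they are not separate measurements. Yipf3 and Gpn2 moved far less, with Yipf3 at 1072 counts in tumour MDC and 1911 in tumour PBS against 977 and 983 in wild type PBS 1 and 2.

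The change was not seen in genes that lie beside the chromosome 3 and chromosome 9 groups in muscle. Of 30 genes other than Ngp between Camp and Ltf, 15 had enough counts and 0 passed the size rule in tumour PBS against wild type PBS muscle. In tumour MDC against tumour PBS 1 of these 15 passed, Myl3, a slow muscle myosin light chain gene, which was higher. In tumour against wild type kidney 0 of 16 passed. Around S100a8 and S100a9, 14 genes lie between them or within 200 kb, of which 8 had enough counts. None of the 8 passed in either muscle comparison, and S100a6 passed upward in kidney, at 52.2 CPM in tumour against 20.8 CPM in wild type kidney.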

How the data were processed

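Each of the 9 libraries has 1 deposited table, which holds raw counts by gene symbol, gene lengths, and RPKM that the authors derived from these counts. Per the labels, RNA was taken with TRIzol. Per the submitters' processing notes, reads were aligned with HISAT2 2.1.0 to mm10. The counting program, its annotation, strand setting and handling of multi-mapping reads are not given in the sources used, so antisense and near-identical genes may share reads. For genes over 100 counts, RPKM recomputed from counts and lengths differed from the deposited one by at most 5e-04 %.

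Counts were scaled with TMM in edgeR 4.0.16 (R 4.3.3), separately in muscle (15482 genes after filterByExpr, minimum count 10) and kidney (15986 genes), and log2 CPM used a prior count of 2. The muscle test was edgeR's quasi-likelihood test over all 7 libraries with 1 coefficient per group and Benjamini-Hochberg adjustment. Its 1 residual degree of freedom comes from the wild type PBS pair, and the fit gives every other group the same spread (biological coefficient of variation 0.498, 15.1 prior degrees of freedom). Nothing in the labels says that the pair came from separate animals, so p-values rest on the spread between those 2 libraries, which lie in sets B and C. All 10 genes passed the filter, but Ltf, Camp, Retnlg, Cd177 and Mrgpra2b did so only through the tumour libraries, where they are high. That these genes were not called in the DKK1 and knockout tests is therefore no result about them. Mrgpra2b had 0 counts in every library those tests compare and could not be called. DESeq2 1.42.0 was an alternative for 4 of the 5 tests, not for the interaction. The code was tested on simulated data.

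The genes, the other gene lists and the tests were chosen with earlier results of these data known. All 10 genes were named in each comparison. Of each other list the 2 first-listed genes and up to 2 past the size rule in each direction were named, with further ones named after their values were seen, and the 10 most alike genes were ranked by Pearson correlation. Ly6g, Ahsp and Trac had no row. Positions are from GENCODE M21 on GRCm38. Figures were drawn in Python 3.11.15 with matplotlib 3.10.9.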

Additional observations from a re-analysis of the deposited data

How the results depend on the processing

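Of the values recomputed under other settings, 93 kept their direction and size, 13 moved by more than the spread of the wild type pair or by over 1.5 times in a count, and 2 changed sign. Scaling by total counts or DESeq2 size factors and dropping the low count filter moved none of them. Leaving out wild type PBS replicate 1 or 2 left no residual degree of freedom, so these are values without a test. The median log2 change of the 10 genes in tumour PBS against wild type PBS muscle was then 7.17 or 4.72, and in tumour MDC against wild type PBS 4.11 or 1.68. In wild type DKK1 it was 0.23, a change of sign from -0.88, or -1.86, and in knockout PBS -0.035 or -2.50. Without replicate 2, 1 gene, S100a9, passed the size rule downward in wild type DKK1 and in knockout PBS, as did 11.1% and 6.85% of all genes with enough counts in those comparisons. With a minimum of 20 counts, 7 genes passed upward in tumour MDC against wild type PBS (1.77% of all genes with enough counts), 1, Mmp9, in knockout DKK1 against knockout PBS (4.61%) and 8 in tumour kidney (7.64%). At 4-fold, 0 passed in tumour MDC against wild type PBS (0.119%). A prior count of 0.5 gave a kidney median of 4.91. With counts under 3 set to 3, a setting chosen after seeing the data, the median of knockout DKK1 against wild type DKK1 was 0.25, a change of sign from -0.36. Apart from settings that leave out a library or change a count minimum, the cause was not tested. No paired analysis was possible because nothing in the labels ties a library in 1 group to a library in another. Counts of 0 to 15 in most genes outside the tumour libraries limit what can be seen there.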

Other observations

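The receptors and inhibitors of the proteins that the 10 genes encode had their own pattern in tumour kidney. Of 11 such genes 3 passed the size rule upward there and 0 downward (median log2 change 0.14), among them Tlr4, the receptor that calprotectin can engage, with 295 counts in tumour kidney against 91 in wild type kidney, and its co-receptor Cd14, with 3130 against 413. Ager, the receptor for advanced glycation end products, had 62 against 42 counts. In tumour PBS muscle Tlr4 had 88 counts against 22 and 117 in wild type PBS 1 and 2, and Fpr2 was the 1 gene of the list past the rule.

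Relatives of the 10 genes were mostly unlike them. Of 17 S100, resistin-like and matrix metalloproteinase relatives, 0 passed the size rule in tumour PBS against wild type PBS muscle (median 0.57). In tumour MDC against tumour PBS only Retn, the fat-derived resistin gene, passed, and it was lower (5.58 against 22.9 CPM). In tumour against wild type kidney S100a6, S100a11 (216 against 76.7 CPM) and Retn (50.5 against 3.73 CPM) passed upward.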
